A study of Mus musculus with 12 samples.

Results

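The genes described here are those that build, load and present antigens on major histocompatibility complex (MHC) molecules. The rule that selects them uses gene names and no measured value, although it was set with earlier results of these data known: every gene whose symbol begins with H2- together with 19 named partners of class I and class II presentation. The deposited counts listed 42 of them among 18929 genes, 24 with an H2- symbol and 18 of the named partners, and 40 of the 42 were listed for both mutants. They comprised 19 class I heavy chains, 12 genes of the class I light chain and of peptide supply and loading, 3 class I-like molecules, 7 genes of class II presentation and H2-Ke6, which carries the prefix by map position and encodes a metabolic enzyme. H2-Oa and Nlrc5 were listed for Hdac1 alone, and H2-Aa, H2-Ab1 and Ciita were not analysed here.

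Enteroids are budding epithelial cultures grown from intestinal crypts. RNA was taken after 5 days of culture from jejunal enteroids of control mice, of mice with Hdac1 deleted by villin-Cre (Hdac1-deficient) and of mice with Hdac2 deleted by villin-Cre (Hdac2-deficient), with 4 libraries per group and no added cytokine or other treatment stated. Hdac1 and Hdac2 encode histone deacetylases, and the villin promoter limits the Cre recombinase to intestinal epithelium. The study calls the controls villin-Cre in its results and wild-type in its methods, so whether they carried Cre is not certain. The study's methods describe crypts from a single mouse of each genotype on a mixed C57BL/6J, 129SV and CD1 background, so a group may hold repeats of a single line, and the genotype cannot be told apart from the mouse, its line and its H2 haplotype. The p-values below therefore measure the spread between libraries, which may be technical.

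Class I molecules display peptides from inside the cell to CD8 T cells and natural killer cells. Their heavy chains pair with beta-2 microglobulin, and their peptides are cut by the proteasome, in which interferon-inducible subunits can replace the constitutive ones, and are pumped into the endoplasmic reticulum by the TAP transporter. Class II molecules display peptides from endosomes to CD4 T cells and are characteristic of professional antigen-presenting cells, but intestinal epithelium can also make them. Both systems are classically induced by interferon gamma, class I through NLRC5 and interferon regulatory factors and class II through CIITA.

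The upstream stretches of the class I heavy chains are shown because genes with nearly the same letters there had unlike differences in level. RefSeq windows on GRCm38.p6, from 250 bases before to 50 bases after an annotated start, were given for 30 of the 42 members. The element TTTCACTTC, which reads GAAGTGAAA on the opposite strand and is part of the known interferon-responsive region of class I genes, was in a window of 7 of the 30 members and in 0.505% of all 32851 windows. The first 9 letters of the nearby kappa B site, GGGGATTCC or GGAATCCCC, were in a window of 4 members and in 0.25% of all windows. Capitals mark these 2 elements in the 30 bases that end with the interferon element, each read 5′ to 3′ on the strand of the gene.
H2-K1, chr17:34000429-34000458, minus strand: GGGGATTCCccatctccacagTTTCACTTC
H2-D1, chr17:35262923-35262952, plus strand: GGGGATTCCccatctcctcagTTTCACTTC
H2-Q6, chr17:35424677-35424706, plus strand: GGGGATTCCccatctccccagTTTCACTTC
H2-Q7, chr17:35439021-35439050, plus strand: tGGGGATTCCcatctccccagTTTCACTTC
H2-Q4, chr17:35379443-35379472, plus strand: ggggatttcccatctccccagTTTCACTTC
H2-Q10, chr17:35469913-35469942, plus strand: gaggactccccatctccccagTTTCACTTC
H2-M3, chr17:37270112-37270141, plus strand: attcccccatttcctctgaggTTTCACTTC

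H2-D1 and H2-Q6 each differed from H2-K1 at 1 of these 30 positions and H2-Q4 at 2. The Y box, CCAATCAG or CTGATTGG, was in a window of 9 members, H2-K1, H2-D1, H2-Q6, H2-Q7, H2-T23, H2-Eb1, H2-Oa, Tap1 and Psmb9, and in 4.1% of all windows. No window of H2-Q2 or H2-T3 held the class I interferon element, the kappa B letters or the Y box. A match is a description of letters, and a window without them says nothing of the factors that bind there.

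Other members carry other interferon-related letters, shown for the light chain and for the most changed member. The pair of genes that lie head to head is shown for its Y box. The interferon-stimulated response element, searched as 2 GAAA repeats with any 2 bases between them, was in a window of 6 members, B2m, Ctss, Erap1, H2-T22, H2-T23 and Psme1, and in 3.44% of all windows. The letters TTCCNNGAA, or TTCNNGGAA, of the gamma-activated site were in a window of 2 of the 30 members, Psmb8 and H2-M3. They were in 4.81% of all windows, a similar share. Tap1 and Psmb9 start 225 bases apart on opposite strands, and the last line gives the 30 bases next to the Psmb9 start on the strand of Tap1. Capitals mark the response element in B2m, the gamma-activated site in Psmb8 and the Y box between Psmb9 and Tap1.
B2m, chr2:122147528-122147557, plus strand: acgggactttataagaacatGAAACTGAAA
Psmb8, chr17:34198077-34198106, plus strand: accctattcagtcctccgctgTTCCCAGAA
Tap1 and Psmb9, chr17:34187331-34187360, plus strand: tttCCAATCAGcggctgcgcgcggtgcagg

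Libraries held 20693200 to 30658628 counts on genes, with group medians of 29105201 for control, 28662159 for Hdac1-deficient and 24595010.5 for Hdac2-deficient enteroids. Levels are given as CPM, the count of a gene scaled to a fixed library size after TMM normalization, and 3 counts, the floor of detection, equalled 0.0972 to 0.145 CPM. This floor and the intervals given for low counts cover counting error only. Hdac1 lay between 87.5 and 94.4 CPM in control and between 3.37 and 5.09 CPM in Hdac1-deficient libraries, and Hdac2 between 132 and 141 CPM in control and between 73.2 and 78.8 CPM with Hdac2 deleted, so each targeted gene was lowest under its own label. Each also lay below control in the other mutant. Hdac1 was at 68.7 to 78.5 CPM with Hdac2 deleted, and Hdac2 at 106 to 114 CPM with Hdac1 deleted. Xist, the transcript of the inactive X chromosome, lay between 1.41 and 1.72 CPM in control but above 494 CPM in every mutant library, so the control also differed from both mutants in X-chromosome state. This difference cannot be told apart from the genotype, and the study's methods do not state the sex of the mice. All 13 markers of intestinal epithelium were detected in every library, with summed levels of 9750 to 10200 CPM in control, 9650 to 9830 CPM with Hdac1 deleted and 10700 to 10900 CPM with Hdac2 deleted. Within that sum the markers moved apart. Olfm4, a stem cell marker, lay between 2620 and 2850 CPM in control, 1400 and 1660 CPM with Hdac1 deleted and 1070 and 1240 CPM with Hdac2 deleted. Alpi, an enterocyte enzyme, lay between 415 and 445, 635 and 779, and 724 and 801 CPM in the same order, Krt20, a keratin of differentiated cells, between 165 and 181, 289 and 299, and 257 and 276 CPM, and Muc2, the goblet cell mucin, between 33.1 and 51, 73.1 and 88.7, and 70.9 and 99.2 CPM. The part of epithelial cell composition in the results below was not tested, and in bulk libraries a change in the share of a cell type and a change in RNA per cell cannot be told apart.

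Most measurable presentation genes were higher in both mutants. In Hdac1-deficient enteroids, 24 of the 33 members tested rose and 5 fell, against 32.7% of all 14246 genes tested that were higher and 31.9% that were lower. In Hdac2-deficient enteroids, 23 of the 32 members tested rose and 3 fell, against 31.4% and 30.9% of 14007 genes. The median log2 fold change of the tested members was 0.46 with Hdac1 deleted and 0.41 with Hdac2 deleted, and that of all genes tested was -0.004 in both. The threshold was an adjusted p of 0.05 or less by edgeR's quasi-likelihood F test with Benjamini-Hochberg adjustment over all genes tested, and the same 4 control libraries served both comparisons.

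Changes of more than 2-fold were fewer, and all were increases. They numbered 7 members in Hdac1-deficient enteroids, Psmb8, Fcgrt, H2-Q6, Cd1d1, H2-DMa, Tap2 and H2-Q7, where 6.87% of all genes tested were called in that direction. They numbered 4 members in Hdac2-deficient enteroids, Psmb8, Fcgrt, H2-Q6 and H2-Q7, where 5.45% of all genes were. The most negative member of either comparison was H2-K2 with Hdac1 deleted, at a log2 fold change of -0.71, so 0 members were lower by more than 2-fold at any p in edgeR, where 3.71% and 2.84% of all genes were called lower by more than 2-fold in the Hdac1 and Hdac2 comparisons, and 0 were in DESeq2. Of the 32 members tested in both comparisons, 20 rose in both, 3 fell in both, 1 moved in opposite directions, 2 passed in neither and 6 passed in one comparison alone. The same joint count was not made over all genes. Because the control libraries were shared, the comparisons are not independent, so these joint counts describe the members alone.

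**Figure D1:**
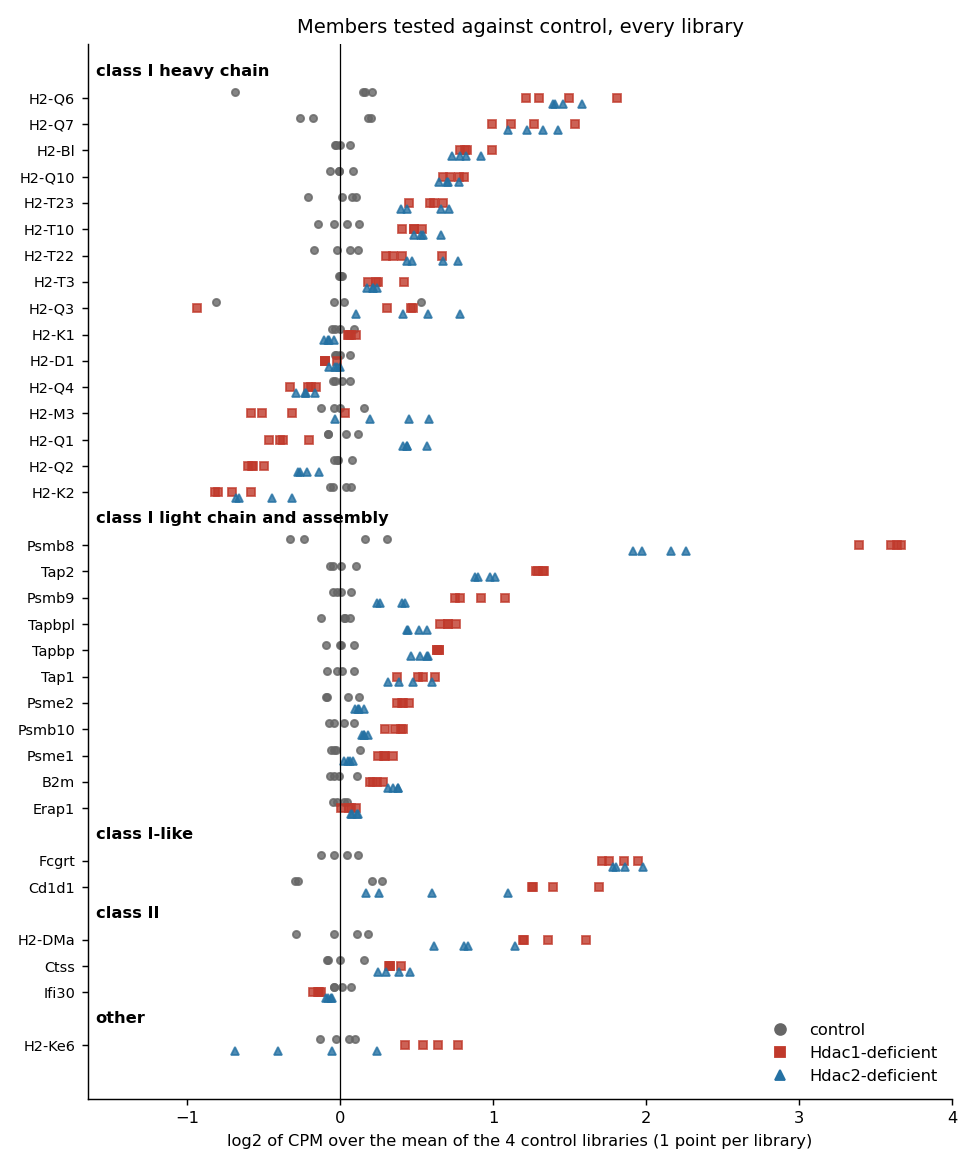
The log2 ratio of each library's CPM to the mean of the 4 control libraries is plotted for the 33 members tested in the Hdac1 comparison, grouped by class, with 1 point per library and colours for the groups. Psmb8 lies farthest to the right, and H2-Q1 is the member whose mutant groups lie on opposite sides of the control libraries.

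Per kilobase of annotated exon, the class I chains were among the most abundant members. B2m stood at 321 CPM per kb in control, H2-D1 at 158 and H2-K1 at 143, and the next heavy chain, H2-Q2, at 46.6. The transporter and the inducible proteasome subunits Psmb9 and Psmb8 were far lower, with Tap2 at 2.37, Tap1 at 1.72, Psmb9 at 1.43 and Psmb8 at 0.221 CPM per kb. The inducible subunit Psmb10 stood higher than these, at 22.3 CPM per kb. Of the class II genes, only the endosomal enzymes that also serve other pathways were abundant, Ifi30, a thiol reductase, at 260 and Ctss, a protease, at 12.2 CPM per kb. The class II beta chain H2-Eb1 stood at 0.0394 and the invariant chain Cd74 at 0.0149 CPM per kb.

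The classical heavy chains changed little. H2-K1 was at 446, 403, 410.3 and 418 CPM in control, 437, 440.5, 435 and 450.2 CPM with Hdac1 deleted and 397, 398, 389 and 407 CPM with Hdac2 deleted. Both mutant ranges overlapped the control range, with a log2 fold change of 0.08 ± 0.03 (SE, adjusted p = 0.0379) in Hdac1-deficient and -0.07 ± 0.03 (SE, adjusted p = 0.0749) in Hdac2-deficient enteroids. The first passed by a small margin, and its adjusted p rose to between 0.0549 and 0.145 when any one of control replicates 2, 3 and 4 or Hdac1-deficient replicates 1, 2 and 4 was left out. With no filter on low counts it was 0.0575, and with a replicate block in the fit 0.0614. The second did not pass, but it passed without control replicate 2, with an adjusted p of 0.0347. With library size alone, a replicate block or all 12 libraries in 1 fit it also passed (adjusted p = 0.00836, 0.0485 and 0.0404). H2-D1 was at 426, 401, 399 and 407 CPM in control, 381, 381, 382 and 402 CPM with Hdac1 deleted and 388, 399, 403 and 408 CPM with Hdac2 deleted. Neither difference passed, with -0.07 ± 0.03 (SE, adjusted p = 0.0793) and -0.02 ± 0.03 (SE, adjusted p = 0.539), and the first passed without Hdac1-deficient replicate 4, with an adjusted p of 0.0302. H2-K1 and H2-D1 together held 71.8% ± 0.63 (SD, n = 4) of the counts on the 19 heavy chains in control, 70.8% ± 0.29 with Hdac1 deleted and 68.1% ± 0.362 with Hdac2 deleted.

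The other heavy chains, the nonclassical genes of the Q, T and M regions of chromosome 17 and the pseudogene H2-K2 beside H2-K1, divided in both directions. Over all 19 heavy chains, 16 were tested, and 9 rose, 4 fell and 3 did not pass in Hdac1-deficient enteroids, while 10 rose, 3 fell and 3 did not pass in Hdac2-deficient enteroids. Of all genes tested, 32.7% were higher and 31.9% lower in the Hdac1 comparison, and 31.4% and 30.9% in the Hdac2 comparison. The median log2 fold changes of the chains were 0.23 and 0.47. Summed over the 17 chains other than H2-K1 and H2-D1, the level was 325 ± 5.81 CPM (SD, n = 4) in control libraries, 341 ± 10.1 CPM with Hdac1 deleted and 373 ± 5.75 CPM with Hdac2 deleted.

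H2-Q6 and H2-Q7, neighbouring Qa-2 genes, were the heavy chains that rose most. H2-Q6 was at 0.77, 1.37, 1.39 and 1.43 CPM in control, 3.49, 3.04, 4.34 and 2.87 CPM with Hdac1 deleted and 3.28, 3.71, 3.39 and 3.25 CPM with Hdac2 deleted. H2-Q7 was at 1.51, 2.08, 2.05 and 1.6 CPM in control, 4.35, 3.92, 5.22 and 3.6 CPM with Hdac1 deleted and 4.53, 3.87, 4.85 and 4.21 CPM with Hdac2 deleted. For each gene, every mutant library lay above every control library. The log2 fold changes were 1.49 ± 0.18 (SE, adjusted p = 6.83e-07) and 1.48 ± 0.17 (SE, adjusted p = 1.37e-07) for H2-Q6, and 1.25 ± 0.15 (SE, adjusted p = 3.58e-07) and 1.27 ± 0.14 (SE, adjusted p = 6.2e-08) for H2-Q7, in Hdac1- and Hdac2-deficient enteroids respectively. The transcripts of these genes share sequence: 13% of the 100-base windows of H2-Q6 and 13.5% of those of H2-Q7 were found in transcripts of other genes, so their counts are not fully separate.

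H2-Q10, a Q-region gene known mainly as a secreted liver product, rose from 45.8 ± 2.03 CPM (SD, n = 4) in control libraries to 76.7 ± 3.26 CPM with Hdac1 deleted and 74.9 ± 2.83 CPM with Hdac2 deleted. H2-Bl, annotated as a polymorphic pseudogene, rose from 9.31 ± 0.3 CPM to 16.9 ± 1.13 CPM and 16.4 ± 0.923 CPM. H2-T23, which encodes Qa-1 and presents a class I leader peptide to natural killer cells, rose with log2 fold changes of 0.60 and 0.57, and H2-T22, a ligand of some gamma delta T cells, with 0.46 and 0.61. H2-T10 rose by 0.48 and 0.56. H2-T3, which encodes the thymus leukemia antigen made by intestinal epithelium, was the most abundant T-region gene, at 83 ± 0.454 CPM in control, and rose by 0.28 and 0.22. In all of these genes the 4 libraries of each mutant lay above the 4 control libraries.

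The members that fell in both mutants were 3 heavy chains. H2-Q2, the most abundant Q-region gene, was at 102 ± 3.72 CPM (SD, n = 4) in control libraries, 68.8 ± 2.1 CPM with Hdac1 deleted and 86.9 ± 3.74 CPM with Hdac2 deleted, with log2 fold changes of -0.55 and -0.22 and no overlap between any pair of groups. H2-K2, a transcribed pseudogene next to H2-K1, fell with log2 fold changes of -0.71 and -0.52, and H2-Q4 with -0.21 and -0.22. H2-Q1 moved in opposite directions: it was at 29.2, 30.7, 26.9 and 26.8 CPM in control, 21.6, 24.7, 21.97 and 20.6 CPM with Hdac1 deleted and 37.7, 38.5, 42.1 and 38.5 CPM with Hdac2 deleted. The groups did not overlap, and the log2 fold changes were -0.34 ± 0.06 (SE, adjusted p = 6.21e-05) and 0.47 ± 0.05 (SE, adjusted p = 8.02e-08), with a difference between the mutants of -0.81 ± 0.06 (SE, adjusted p = 4.93e-12). H2-M3, which presents formylated bacterial peptides, was near -0.30 in Hdac1-deficient enteroids, where it did not pass unless Hdac1-deficient replicate 3 was left out (-0.45, adjusted p = 0.017). With Hdac2 deleted its log2 fold change of 0.34 passed with an adjusted p of 0.0464 and missed the threshold without control replicate 1, 2 or 3 or Hdac2-deficient replicate 2 or 4, at 0.0636 to 0.19. It also missed it in DESeq2 (adjusted p = 0.0957), and in 11 of 16 alternatives in all. The pseudogene H2-Q3 passed in neither mutant, but it did in Hdac2-deficient enteroids without control replicate 3 (0.72, adjusted p = 0.0404).

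**Figure D2:**
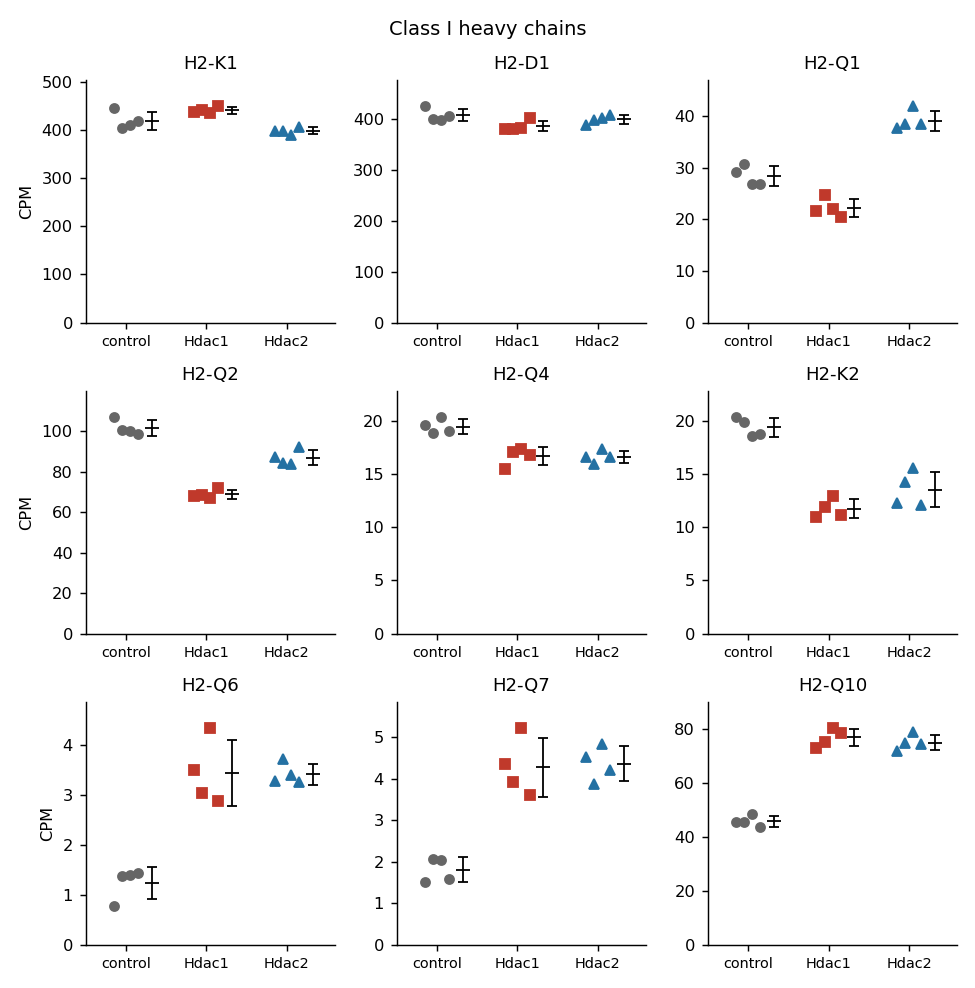
CPM per library is shown for 9 class I heavy chains on axes that start at 0, with the mean and SD of the 4 libraries of each group beside the points. H2-K1 and H2-D1 stay near their control level, H2-Q6, H2-Q7 and H2-Q10 lie higher in both mutants, H2-Q2, H2-Q4 and H2-K2 lie lower in both, and H2-Q1 lies on opposite sides of control.

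Reads of some heavy chains cannot be assigned with full certainty. The H2 genes are polymorphic, the reads were aligned to a C57BL/6J reference, and mice of a mixed background may carry other H2 alleles, so a difference in level and a difference in allele cannot be told apart. At least 10% of the 100-base windows of the longest transcript were found in transcripts of another gene for H2-Q4 (14.6%), H2-Q5 (12.9%), H2-T10 (29.7%) and H2-T22 (38.1%) besides H2-Q6 and H2-Q7. For H2-Q4, H2-T10 and H2-T22 most of the shared windows (12.3%, 25.3% and 30.5% of all their windows) were in a gene whose exons overlap theirs on the opposite strand, and whether the counting used strand is not given in the sources used here.

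The light chain rose in both mutants by less than 1.3-fold. B2m was at 297, 263, 268 and 274 CPM in control, 320.2, 334, 325 and 315 CPM with Hdac1 deleted and 359, 349, 342 and 359 CPM with Hdac2 deleted. Every mutant library lay above every control library, and every Hdac2-deficient library above every Hdac1-deficient library. The log2 fold changes were 0.24 ± 0.04 (SE, adjusted p = 9.18e-06) and 0.36 ± 0.03 (SE, adjusted p = 6.85e-09), and the Hdac1-deficient level was lower than the Hdac2-deficient one by 0.12 ± 0.03 (SE, adjusted p = 0.00454) on the log2 scale.

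The members that cut, transport and load class I peptides moved together in direction: of the 11 tested with B2m, 10 rose and 0 fell in each mutant in edgeR, where 32.7% and 31.4% of all genes tested were higher and 31.9% and 30.9% lower in the Hdac1 and Hdac2 comparisons. The 19 other genes of general peptide supply and loading, described below, divided in both directions. Erap1, an aminopeptidase that trims peptides, did not pass in Hdac1-deficient enteroids (0.07), and its 0.10 in Hdac2-deficient enteroids missed the threshold without control replicate 4 (adjusted p = 0.0593). The latter also missed it with library size alone (adjusted p = 0.0846). Psme1, a subunit of the PA28 proteasome activator, did not pass in Hdac2-deficient enteroids (0.07, adjusted p = 0.144), but did so without control replicate 1 (0.11, adjusted p = 0.00429). At an unadjusted p of at most 0.05 in the same test, 0 of the 11 were lower in either comparison. The share of all genes lower at that unadjusted p is not given here. All 11 fitted values were above 0, as were 7045 of all 14246 genes tested for Hdac1 and 6950 of 14007 for Hdac2.

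Psmb8, the inducible proteasome subunit that replaces Psmb5, had the largest difference of all members. It was at 0.837, 0.633, 0.594 and 0.924 CPM in control, 9.48, 9.33, 9.07 and 7.85 CPM with Hdac1 deleted and 3.57, 2.93, 3.34 and 2.82 CPM with Hdac2 deleted. The groups did not overlap, and the Hdac2-deficient libraries lay between the control and Hdac1-deficient libraries. The log2 fold changes were 3.60 ± 0.14 (SE, adjusted p = 1.2e-14) and 2.10 ± 0.18 (SE, adjusted p = 1.58e-09), and the mutants differed by 1.49 ± 0.11 (SE, adjusted p = 7.55e-12). Counted per kilobase of exon, Psmb8 made up 0.437% ± 0.0795 (SD, n = 4) of Psmb8 and Psmb5 together in control, 3.45% ± 0.319 with Hdac1 deleted and 1.96% ± 0.295 in Hdac2-deficient enteroids. An exon of the gene Gm20496 overlaps 14.7% of the Psmb8 exon bases on the opposite strand.

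The other inducible subunits rose less. Psmb9, which replaces Psmb6, was at 5.49, 5.07, 5.25 and 5.17 CPM in control, 9.03, 9.91, 11.04 and 8.83 CPM with Hdac1 deleted and 7.04, 6.29, 6.93 and 6.2 CPM with Hdac2 deleted, with no overlap between groups. Its log2 fold changes were 0.90 ± 0.09 (SE, adjusted p = 2.4e-08) and 0.34 ± 0.09 (SE, adjusted p = 0.00181), and the mutants differed by 0.56 ± 0.08 (SE, adjusted p = 5.28e-06). Psmb10, which replaces Psmb7, was at 40.4, 36.1, 36.9 and 38.6 CPM in control, 46.4, 50.4, 50.03 and 48.7 CPM with Hdac1 deleted and 42.00, 43.04, 42.3 and 42.2 CPM with Hdac2 deleted, again without overlap. Its log2 fold changes were 0.38 ± 0.04 (SE, adjusted p = 4.15e-07) and 0.17 ± 0.04 (SE, adjusted p = 0.00179). Per kilobase, Psmb9 made up 2.23% ± 0.00965 (SD, n = 4) of Psmb9 and Psmb6 in control, 3.9% ± 0.353 with Hdac1 deleted and 2.93% ± 0.199 with Hdac2 deleted, and Psmb10 made up 36.9% ± 0.231, 43.9% ± 0.719 and 41.1% ± 0.697 of Psmb10 and Psmb7. The 3 inducible subunits thus had unlike base levels, with Psmb10 the only one near its constitutive counterpart. Psme2, the partner of Psme1 in PA28, rose by 0.42 in Hdac1-deficient and by 0.13 in Hdac2-deficient enteroids, and the second missed the threshold without control replicate 3 (adjusted p = 0.0504). Of the 100-base windows of Psme2, 44.5% were shared with other transcripts, mostly of the gene copy Psme2b.

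The transporter subunits Tap1 and Tap2 both rose. Tap2 was at 8.98, 8.55, 8.65 and 9.62 CPM in control, 21.7, 22.5, 22.4 and 21.96 CPM with Hdac1 deleted and 16.5, 17.6, 16.7 and 18.04 CPM with Hdac2 deleted, with no overlap between groups. Its log2 fold changes were 1.32 ± 0.06 (SE, adjusted p = 1.6e-13) and 0.96 ± 0.06 (SE, adjusted p = 4.03e-11). Exons of Gm15821 on the opposite strand overlap 14.1% of the Tap2 exon bases, and annotated GENCODE exons of Tap1 and Psmb9 overlap over 3.87% of the Tap1 and 5.79% of the Psmb9 exon bases. Tap1 was at 8.88, 9.5, 10.04 and 9.28 CPM in control, 13.4, 13.7, 14.5 and 12.2 CPM with Hdac1 deleted and 11.7, 13.1, 14.3 and 12.3 CPM with Hdac2 deleted. Both mutants lay above control and overlapped each other, with log2 fold changes of 0.53 ± 0.07 (SE, adjusted p = 2.22e-06) and 0.45 ± 0.07 (SE, adjusted p = 2.11e-05). The difference between the mutants was 0.07 (adjusted p = 0.433) for Tap1, which did not pass, and it passed for its head-to-head neighbour Psmb9; whether the genes differed from each other in this was not tested.

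Peptide editors rose in both mutants. Tapbp, the tapasin that bridges TAP to class I, was at 60.6, 56.9, 57.2 and 53.6 CPM in control, 88.3, 89.4, 88.4 and 89.1 CPM with Hdac1 deleted and 84.8, 81.9, 78.7 and 84.4 CPM with Hdac2 deleted, with log2 fold changes of 0.65 ± 0.04 (SE, adjusted p = 1.66e-11) and 0.54 ± 0.04 (SE, adjusted p = 1.76e-10). Tapbpl, the TAP-independent editor TAPBPR, rose from 18.8 ± 1.06 CPM (SD, n = 4) to 30.6 ± 0.901 CPM with Hdac1 deleted and 26.4 ± 1.18 CPM with Hdac2 deleted. Exons of Gm19412 on the opposite strand overlap 24.9% of the Tapbp exon bases. For both editors the groups did not overlap, with Hdac1-deficient libraries highest. Nlrc5, the class I transactivator, was near the floor, with counts of 0, 1, 2 and 0 in control and 2, 2, 4 and 3 in Hdac1-deficient libraries. It was not tested, and the ratio of summed counts, scaled for library size, was 3.57 (95% interval 0.942 to 19.9, exact binomial).

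**Figure D3:**
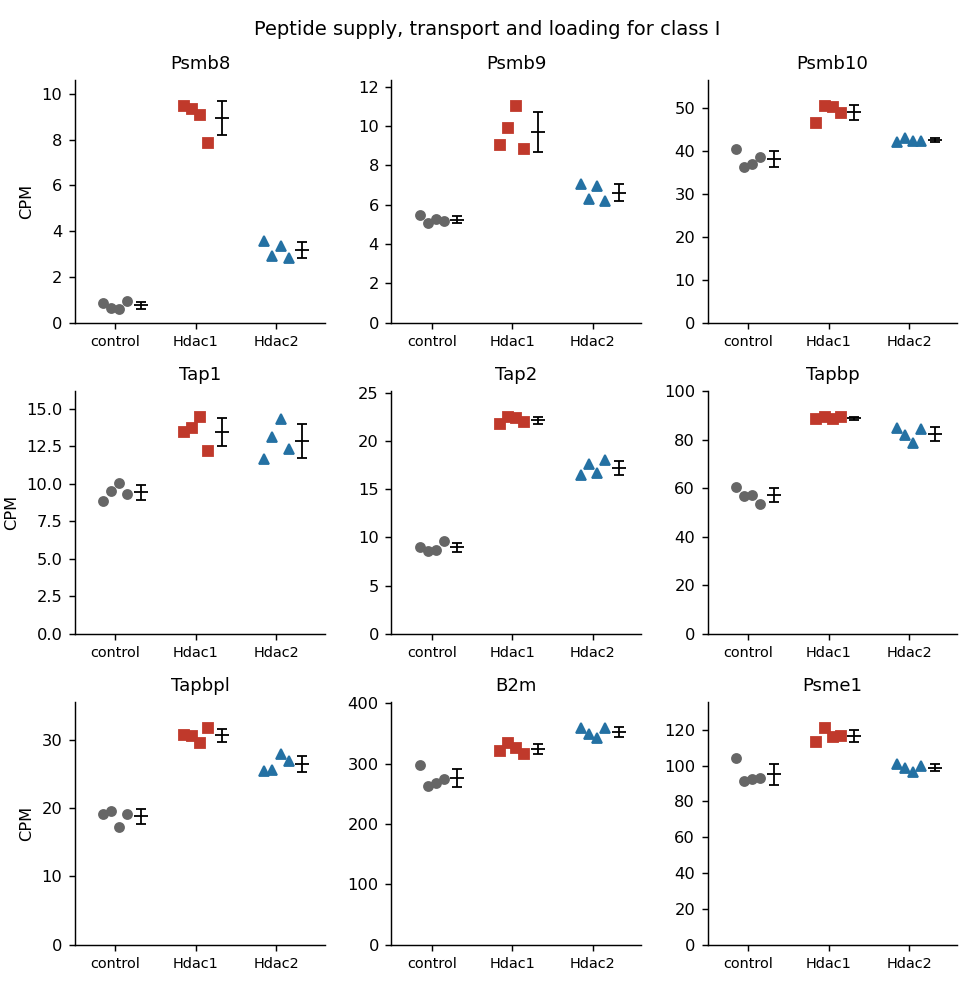
CPM per library is shown for 9 genes of class I peptide supply, transport and loading on axes that start at 0, with the mean and SD of the 4 libraries of each group beside the points. Psmb8 rises from below 1 CPM in control to between 7.85 and 9.48 CPM in Hdac1-deficient libraries, and B2m is the one of these genes whose Hdac2-deficient libraries lie highest.

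Class I-like molecules bind other cargo. Fcgrt, the neonatal Fc receptor that carries IgG across epithelia, was at 10.6, 9.46, 10.04 and 11.2 CPM in control, 34.9, 37.2, 33.8 and 39.7 CPM with Hdac1 deleted and 36.03, 37.4, 35.6 and 40.7 CPM with Hdac2 deleted. The mutants overlapped each other and lay far above control. The log2 fold changes were 1.83 ± 0.06 (SE, adjusted p = 3.21e-15) and 1.87 ± 0.06 (SE, adjusted p = 2.05e-16), and the difference between the mutants was -0.04 ± 0.05 (SE, adjusted p = 0.588), which did not pass. Cd1d1, which presents lipids to natural killer T cells, was at 0.201, 0.281, 0.198 and 0.294 CPM in control, 0.637, 0.583, 0.788 and 0.582 CPM with Hdac1 deleted and 0.368, 0.273, 0.291 and 0.52 CPM with Hdac2 deleted. It rose in Hdac1-deficient enteroids, by 1.43 ± 0.29 (SE, adjusted p = 0.000253), with no overlap. In Hdac2-deficient enteroids it was below the count filter, overlapped control and had a ratio of summed counts of 1.51 (95% interval 0.888 to 2.59). The difference between the mutants was 0.83 ± 0.29 (SE, adjusted p = 0.0198) and missed the threshold without Hdac1-deficient replicate 3 or Hdac2-deficient replicate 2 or 3 (adjusted p = 0.0538 to 0.0713). It also missed it in DESeq2 (adjusted p = 0.0657). Mr1, which presents vitamin B metabolites, had counts of 0, 1, 0 and 0 in control libraries, 9, 6, 4 and 4 with Hdac1 deleted and 2, 2, 3 and 2 with Hdac2 deleted. Its ratios of summed counts were 22.4 (3.63 to 922) and 10.5 (1.45 to 460). Both ratios rest on 1 count in control, and no control or Hdac2-deficient library exceeded the floor of 3 counts.

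Of the 7 genes of class II presentation, 3 were abundant enough to test, H2-DMa and the endosomal enzymes Ctss and Ifi30, and the other 4 were detected at low counts. H2-DMa, a chain of the H2-M editor that loads class II, was at 1.61, 1.69, 1.45 and 1.22 CPM in control, 3.82, 3.43, 3.42 and 4.54 CPM with Hdac1 deleted and 2.28, 2.66, 2.62 and 3.3 CPM with Hdac2 deleted, and the 3 groups did not overlap. Its log2 fold changes were 1.35 ± 0.14 (SE, adjusted p = 9.2e-08) and 0.86 ± 0.16 (SE, adjusted p = 0.000105), and the mutants differed by 0.49 ± 0.14 (SE, adjusted p = 0.00463). Its exons overlap those of Brd2 on the opposite strand over 10.4% of their bases. Its partner H2-DMb1 was near the floor, with counts of 1, 2, 0 and 2 in control libraries, 3, 1, 5 and 1 with Hdac1 deleted and 1, 5, 3 and 2 with Hdac2 deleted, and 13.7% of its 100-base windows were shared with H2-DMb2. In control libraries H2-DMa stood at 0.433 and H2-DMb1 at 0.0279 CPM per kb.

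Cd74, the invariant chain that guards the class II groove, had counts of 2, 0, 1 and 0 in control libraries, 8, 11, 7 and 8 with Hdac1 deleted and 5, 6, 2 and 4 with Hdac2 deleted. The ratio of summed counts to control was 11.03 (95% interval 3.47 to 56.1) for Hdac1 and 6.60 (1.91 to 35.2) for Hdac2. H2-Eb1, a class II beta chain, had counts of 1, 4, 4 and 0 in control libraries, 10, 9, 7 and 8 with Hdac1 deleted and 7, 5, 6 and 2 with Hdac2 deleted, with ratios of 3.68 (1.73 to 8.71) and 2.59 (1.13 to 6.46). The Hdac1-deficient counts of both genes lay above all control counts, and those of H2-Eb1 in Hdac2-deficient libraries overlapped control. H2-Oa, which restrains H2-M, had counts of 0, 0, 0 and 0 in control and 3, 4, 1 and 3 in Hdac1-deficient libraries, at or near the floor of 3 counts in both. These intervals rest on counting error and do not cover the spread between libraries.

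The endosomal enzymes did not share a direction. Ctss, which degrades the invariant chain, rose from 16.6 ± 1.32 CPM (SD, n = 4) in control libraries to 21 ± 0.536 CPM with Hdac1 deleted and 21.2 ± 1.36 CPM with Hdac2 deleted, with log2 fold changes of 0.35 and 0.36. Ifi30, which reduces disulfides of endocytosed proteins, fell from 255 ± 9.79 CPM to 230 ± 3.31 CPM with Hdac1 deleted, a log2 fold change of -0.14. Its -0.06 in Hdac2-deficient enteroids did not pass, but passed without control replicate 2 or 3 (adjusted p = 0.0427 and 0.0421). It also passed with library size alone, a replicate block or all 12 libraries in 1 fit (adjusted p = 0.00762, 0.0494 and 0.0367). H2-Ke6 rose in Hdac1-deficient enteroids (0.60) and did not pass in Hdac2-deficient enteroids (-0.19), and 92% of its 100-base windows were shared with the overlapping transcript Gm20427.

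**Figure D4:**
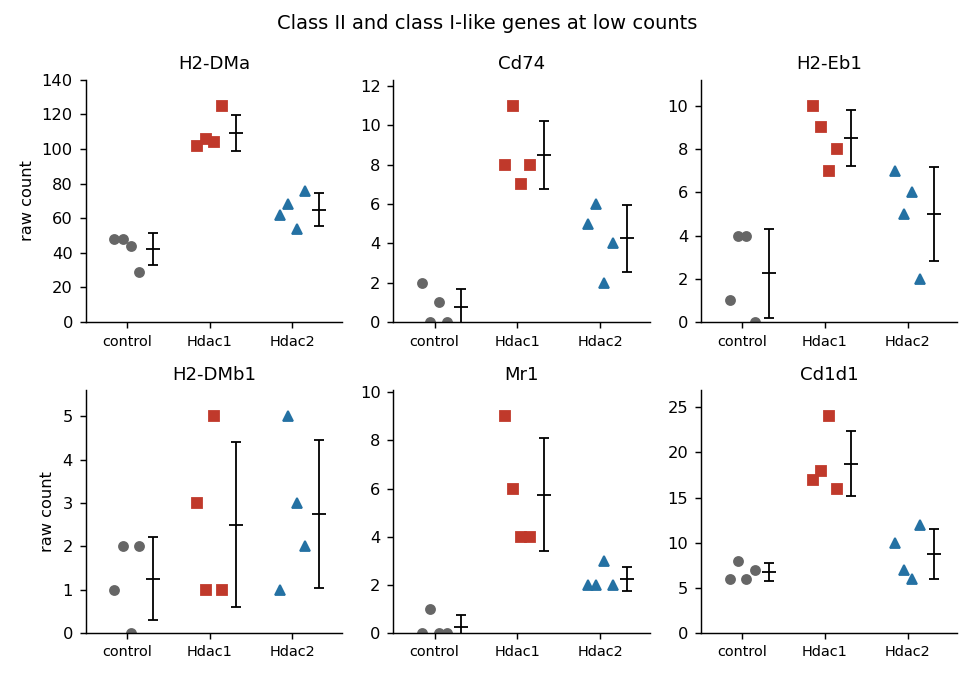
Raw counts per library are shown for 6 class II and class I-like genes, with the mean and SD of the 4 libraries of each group beside the points. Counts of Cd74 run from 0 to 2 in control and from 7 to 11 in Hdac1-deficient libraries, and those of H2-DMb1 stay at 5 or below in every library.

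Markers of professional antigen-presenting cells were examined because such cells carry class II genes. Of 12 dendritic cell and macrophage markers 6 were listed, with summed levels of 5.71 to 6.3 CPM in control, 7.24 to 8.54 CPM with Hdac1 deleted and 8.73 to 9.76 CPM with Hdac2 deleted, and Itgax, Flt3 and Adgre1 were not among the listed genes. The largest part was Mrc1, at 3.22 to 3.44 CPM in control, 3.38 to 4.17 CPM with Hdac1 deleted and 4.12 to 4.69 CPM with Hdac2 deleted. Itgam had counts of 19 to 28 in control, 44 to 72 in Hdac1-deficient and 50 to 88 in Hdac2-deficient libraries. The other 4 differed in direction: Csf1r had counts of 6 to 20 in control, 20 to 22 with Hdac1 deleted and 1 to 5 with Hdac2 deleted, Cd68 of 22 to 37, 27 to 28 and 34 to 39, Zbtb46 of 2 to 11, 7 to 9 and 2 to 4, and C1qa of 0 to 2, 2 to 9 and 3 to 7. Of 6 B cell markers 2 were listed, and Cd79b, a part of the B cell receptor, had counts of 5 to 17, 54 to 69 and 25 to 36, while Pax5 had at most 3. Ptprc, the pan-leukocyte marker, had at most 4 counts in any library, and the 4 leukocyte markers, 3 of them listed, summed to at most 0.776 CPM. None of the 8 T cell and innate lymphocyte markers was listed, and 2 of 5 fibroblast and 1 of 4 endothelial markers summed to at most 0.356 and 0.508 CPM. Itgam and Cd79b counts and the summed counts of Cd74 were higher in both mutants. Mrc1 and C1qa lay above control with Hdac2 deleted, and with Hdac1 deleted they reached higher than control but overlapped it. Csf1r, Cd68 and Zbtb46 counts were not higher in both mutants. The part of such cells in the class II result was not tested.

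The mutants were compared directly in a fit of all 12 libraries. Of the 34 members tested, 12 were higher with Hdac1 deleted than with Hdac2 deleted, 6 were lower and 16 did not pass, against 22.3% higher and 23.7% lower of all 14510 genes. Only Psmb8 differed by more than 2-fold, where 2.74% of all genes did so in that direction, and 0 members were lower by more than 2-fold in edgeR, where 2.89% of all genes were, or in DESeq2. Without Hdac2-deficient replicate 4 a second member, Cd1d1 (log2 difference 1.04), was past 2-fold. The class I supply and loading genes accounted for 8 of the 12, Psmb8, Psmb9, Psmb10, Psme1, Psme2, Tap2, Tapbp and Tapbpl, and the others were H2-K1, Cd1d1, H2-DMa and H2-Ke6. Those lower were B2m, H2-Q1, H2-Q2, H2-K2, H2-M3 and Ifi30. The call for Tapbp was lost without Hdac2-deficient replicate 3 (adjusted p = 0.0849). The lower value of H2-K2 (-0.20, adjusted p = 0.0392) missed the threshold without Hdac1-deficient replicate 1, 2 or 4 or Hdac2-deficient replicate 2 or 3, at 0.069 to 0.193. It also missed it with library size alone or the 8 mutant libraries alone (adjusted p = 0.0874 and 0.0509). The lower value of Ifi30 (-0.07, adjusted p = 0.045) missed the threshold without control replicate 4, any Hdac1-deficient library or Hdac2-deficient replicate 1, 2 or 3, at 0.0535 to 0.106, and also with library size alone (adjusted p = 0.18). It did so in 13 of 20 alternatives in all. Genes whose mutant values did not differ beyond their error, with the 95% interval of the log2 difference between mutants, included Fcgrt (-0.16 to 0.08), H2-Q10 (-0.05 to 0.13), H2-Bl (-0.10 to 0.18), H2-Q6 (-0.31 to 0.34) and H2-Q7 (-0.31 to 0.26).

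Of the 42 members 29 lie within 3.57 Mb of chromosome 17, from Tapbp to H2-M2 (GENCODE M21, GRCm38, chr17:33915899-37483552), among many other genes. Some of the annotated genes there have exons that overlap the exons of members. In the Hdac1 comparison, 69.6% of the 23 members tested there were higher and 17.4% lower, while of the 111 other genes tested in the same span 47.7% were higher and 19.8% lower. In the Hdac2 comparison the shares were 69.6% and 13% of 23 members, and 42.2% and 22.9% of 109 other genes. On the rest of chromosome 17, 36.8% of 582 genes were higher in Hdac1-deficient and 33.3% of 574 in Hdac2-deficient enteroids. The median log2 fold change of the other genes in the span was 0.16 with Hdac1 deleted and 0.15 with Hdac2 deleted. These shares are descriptions and were not tested.

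**Figure D5:**
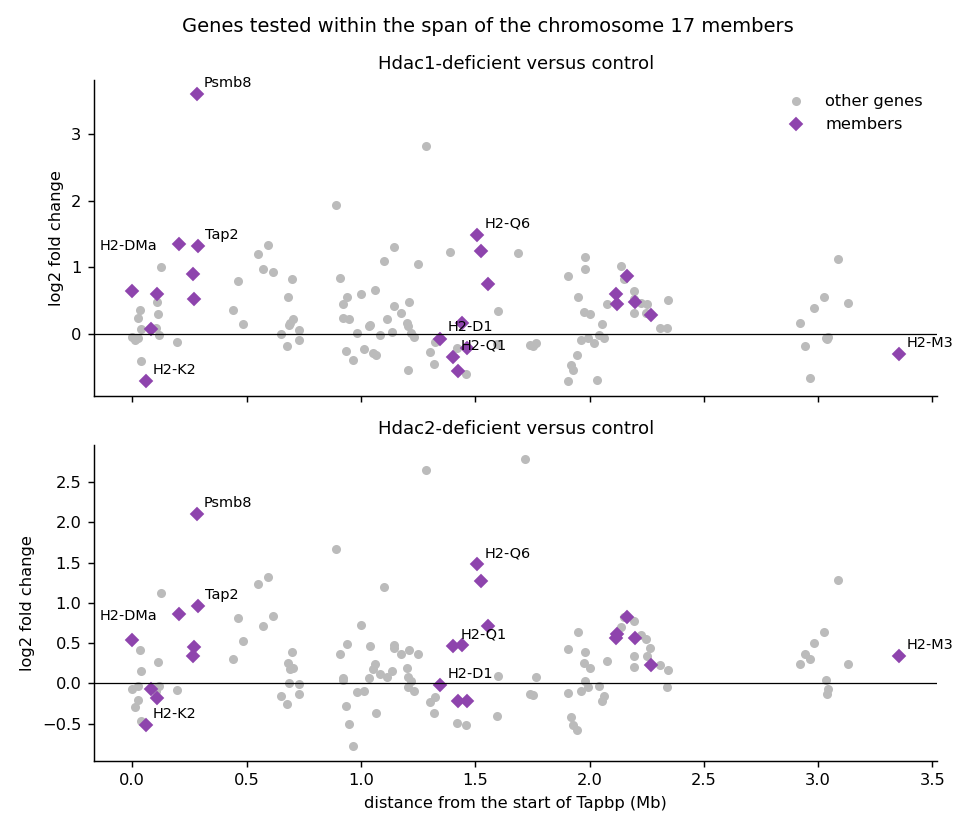
The log2 fold change of each gene tested in the span is plotted against its distance in Mb from the start of Tapbp, above for Hdac1 and below for Hdac2, with members as diamonds and other genes as grey circles. Members and their neighbours lie on both sides of 0, and Psmb8 is the highest member in both panels.

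Other genes of the pathway, in 4 lists, were compared in the same fits. Over the lists, 31 of 63 genes tested rose and 14 fell in Hdac1-deficient enteroids, and 36 of 63 rose and 10 fell in Hdac2-deficient enteroids, against 32.7% higher and 31.9% lower, and 31.4% higher and 30.9% lower, of all genes tested. Among 23 regulators, 11 rose and 4 fell in Hdac1-deficient and 14 rose and 3 fell in Hdac2-deficient enteroids. The lowest adjusted p belonged to Jak2, a kinase of the interferon gamma receptor, which fell with log2 fold changes of -0.67 and -0.55, and to Ifngr1, the ligand-binding chain of that receptor, which rose with 0.46 and 0.58. Irf1, an activator of class I genes named here after its values were seen, rose from 30.3 ± 1.71 CPM (SD, n = 4) to 45.8 ± 1.82 CPM and 43 ± 1.19 CPM. No regulator was called at more than 2-fold in edgeR, and the range was -0.67 to 0.63 for Hdac1 and -0.55 to 0.83 for Hdac2, so at an unadjusted p the count beyond 2-fold is also 0.

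Among 19 genes of general peptide supply and loading, which include chaperones and constitutive proteasome parts, 6 rose and 5 fell in Hdac1-deficient and 6 rose and 6 fell in Hdac2-deficient enteroids, with medians of 0.02 and -0.03. These counts are near the shares of all genes tested, 32.7% higher and 31.9% lower for Hdac1 and 31.4% and 30.9% for Hdac2. Ide, a peptidase, fell with log2 fold changes of -0.53 and -0.49. Psmb5, the constitutive subunit that Psmb8 replaces, rose in Hdac1-deficient enteroids with 0.57, and its value in Hdac2-deficient enteroids was -0.08, which did not pass. Hspa5, an endoplasmic reticulum chaperone, rose by 0.09 and 0.39. Among 10 endosomal genes 7 rose and 1 fell in Hdac1-deficient and 8 rose and 0 fell in Hdac2-deficient enteroids. Ctsl, a cathepsin, rose from 33.6 ± 0.234 CPM (SD, n = 4) to 43.3 ± 1.96 CPM and 67.8 ± 2.61 CPM, the second with a log2 fold change of 1.02, and Ctsz, another cathepsin, rose by 0.42 and 0.43.

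Ligands seen by T cells and natural killer cells showed the largest differences of the 4 lists. Of 11 tested in each comparison, 7 rose and 4 fell in Hdac1-deficient and 8 rose and 1 fell in Hdac2-deficient enteroids. The shares of all genes tested were 32.7% higher and 31.9% lower for Hdac1, and 31.4% higher and 30.9% lower for Hdac2. Ulbp1, a stress-induced ligand of the activating receptor NKG2D, had 2 or 3 counts in each control library and 129 to 166 and 59 to 95 counts in Hdac1- and Hdac2-deficient libraries, ratios of summed counts of 63.5 (95% interval 33.2 to 139) and 38.3 (19.9 to 84.6). Raet1e, another NKG2D ligand, was listed for Hdac1 alone, with at most 2 counts in control and 14 to 17 in Hdac1-deficient libraries, a ratio of 21.1 (6.90 to 105). H60b, a further NKG2D ligand named here after its values were seen, moved the other way: it had 23 to 37 counts in control, 7 to 12 with Hdac1 deleted and 20 to 25 with Hdac2 deleted, and its log2 difference from control was -1.85 with Hdac1 deleted, which passed (adjusted p = 1.63e-06), and -0.28 with Hdac2 deleted, which did not. Icam1, an adhesion molecule for T cells, rose from 0.228 ± 0.0841 CPM (SD, n = 4) to 0.96 ± 0.188 CPM and 0.686 ± 0.122 CPM. Azgp1, a secreted class I-like protein, had 2 to 7 counts in control, 0 in every Hdac1-deficient library and 14 or more in Hdac2-deficient libraries, and rose in the latter with a log2 fold change of 2.55. Named after its values were seen, Cd274, which encodes the inhibitory ligand PD-L1, fell from 4.74 ± 0.556 CPM to 1.15 ± 0.121 CPM and 1.58 ± 0.37 CPM, with log2 fold changes of -2.03 and -1.59.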

How the data were processed

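RNA-Seq was performed on 12 enteroid libraries, 4 per genotype, grouped by the genotype and replicate number of their labels. The authors prepared directional poly(A) libraries and aligned the reads with STAR to GRCm38 (the submitters' processing notes give STAR 2.4.0f1 and bcl2fastq 1.8.4), and the counting program is not given in the sources used here. The authors deposited, for each mutant with the same 4 control libraries, whole-number counts per gene without normalization, and these counts were the only values used. The deposited tables also hold a normalized score per gene and library, the authors' log2 fold changes and average log2 CPM, and p-values, none of which was used. The tables list 18676 genes for Hdac1 and 18225 for Hdac2.

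Counts were tested with edgeR (version 4.0.16, R 4.3.3) by the robust quasi-likelihood F test after TMM scaling and the filterByExpr filter, with Benjamini-Hochberg adjustment over all genes tested. Mutant and control libraries were fitted together, 8 at a time, and the mutants were compared in a fit of 12. Standard errors were derived from each log2 fold change and its F statistic, and intervals of the difference between mutants use it with 9 residual degrees of freedom. Genes under the filter were given as counts, with an exact binomial 95% interval for the ratio of summed counts. The members, the gene lists and the rule for naming genes were chosen with earlier results of these data known. The rule names a fixed set of members and any other called at more than 2-fold, and per list and mutant the 3 called genes with the largest change, or the 2 with the lowest adjusted p where none was called. Positions and exon lengths came from GENCODE M21 (GRCm38), and upstream sequences from RefSeq (GRCm38.p6). The alternatives were DESeq2 (version 1.42.0), other scalings and filters, a replicate block, a test against a 1.5-fold change, other sets of libraries in the fit, and each library left out. The scripts were tested on simulated counts. Figures were made with Python 3.11.15 and matplotlib 3.10.9. No library was left out of the main tests.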

Additional observations from a re-analysis of the deposited data

Results flagged for a closer look

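Among 98 groups of 4 libraries examined over the members, 4 held a library whose distance from the nearest other exceeded Dixon's 95% critical value, where chance flags about 1 in 20 groups. H2-Q6 was at 0.77 CPM in control replicate 1 and at 1.37 to 1.43 CPM in the other control libraries. Psme1 was at 104 CPM in control replicate 1 and at 91.2 to 93.3 CPM in the others. H2-D1 was at 402 CPM in Hdac1-deficient replicate 4 and at 381 to 382 CPM in the others, and Ctss was at 21.8 CPM in Hdac1-deficient replicate 2 and at 20.7 to 20.8 CPM in the others. H2-Q1 passed in opposite directions in the mutants, and the direct test gave a log2 difference of -0.81 for Hdac1-deficient against Hdac2-deficient enteroids.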

How the results depend on the processing

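Tested against a 1.5-fold change, 11 members were higher and 0 lower in Hdac1-deficient, 7 higher and 0 lower in Hdac2-deficient enteroids, and 1 higher and 1 lower between the mutants; the lower counts follow from the stricter test. With no filter on low counts, 11 members rose by more than 2-fold in Hdac1-deficient enteroids. The share of all genes called under each alternative was not computed, so the counts in this section describe the members alone. The count of members lower in Hdac2-deficient enteroids was 3 in the reported fit and 5 with library size alone and with all 12 libraries in 1 fit, and 3 to 5 when a library was left out, with 5 without control replicate 2; Ifi30 and H2-K1 were the added genes. Members past 2-fold, higher with Hdac1 than with Hdac2 deleted, numbered 1 or 2 when a library was left out. The other counts stayed within 1.5 times their reported value. Of the values of single genes under the alternatives, 1587 kept their direction and side of the threshold, 98 lost the threshold, 16 gained it and 18 changed sign.

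The sign changes were of differences that did not pass in either fit. With library size alone, H2-Q7 was at 0.0054 and Ctss at 0.0199 between the mutants. When a library was left out, the difference between the mutants ran from -0.0814 to 0.002 for Fcgrt, -0.0052 to 0.077 for H2-Bl, -0.1393 to 0.0504 for H2-Q7, -0.1246 to 0.0895 for H2-Q6, -0.0162 to 0.09 for H2-T23, -0.0413 to 0.0285 for Ctss and -0.0135 to 0.0427 for H2-Q4, and the Hdac1 comparison with control from -0.0284 to 0.4194 for H2-Q3.

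The replicate numbers were shared between groups, and the deviations of same-numbered libraries correlated between -0.1 and 0.126. Differently numbered libraries correlated over a similar range, -0.127 to 0.165, and the main fits did not use the numbers as pairs. Whether same-numbered libraries shared a preparation was not tested. With the replicate block, 5 members were lower in Hdac2-deficient enteroids, H2-Q6 was at -0.0023 between the mutants, and 23, 22 and 12 members were higher in the Hdac1, Hdac2 and direct comparisons. Depth limits the class II chains, Cd74, Mr1 and Nlrc5, which lay near the floor of 3 counts in control and were not tested.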
